A study of Mus musculus with 6 samples.

Results

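The genes described here are known imprinted genes of the mouse, taken by symbol from a fixed list of 39 names. The count table of this series held 38 of them among its 40322 distinct symbols, and Snrpn was not analysed here. Of the 38, 20 are known as paternally expressed and 17 as maternally expressed, and Gnas gives rise to transcripts of either kind. Subcutaneous white fat was taken from 3 C57BL/6J mice per group, all fed regular chow and housed at room temperature, and its RNA was sequenced. Control mice carried the floxed Nampt alleles (flox/flox). In ANKO mice, Nampt, the rate-limiting enzyme of NAD salvage, was deleted by a Cre transgene that the adiponectin promoter drives, together with the floxed allele. The labels describe floxed Nampt in both groups and the Cre only for ANKO, and they do not give the age of the mice. The adiponectin promoter is active in adipocytes, while the RNA came from whole tissue with its vascular, stromal, immune and nerve cells.

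An imprinted gene is expressed mainly from 1 parental copy, in most cases because DNA methylation marks laid down in the egg or the sperm differ between the copies. Imprinted genes lie in clusters in which a shared control region often drives neighbours of opposite parental origin, and several clusters use a long non-coding RNA to silence genes in cis. Many of these genes act on growth and on the formation and size of fat and muscle. Parental origin is background knowledge here: the mice were inbred and the table gives 1 count per gene, so the allele of origin was not measured. In several members imprinting is known only in some tissues or for some transcripts, among them Ube3a, Blcap, Inpp5f, Grb10 and Ppp1r9a.

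Libraries held 19748962 to 23860596 counts. Nampt itself stood at 83.6, 93.0 and 87.0 CPM (counts scaled to the size of each library) in controls and 48.6, 50.2 and 47.0 CPM in ANKO mice. The 12 adipocyte markers summed to 11699 to 19187 CPM in controls and 6655 to 8517 CPM in ANKO. Of the 12, 4 (Adipoq, Plin1, Acvr1c and Car3) were called lower, against 1.1% of all features. By log2 fold change 10 of the 12 were below 0 and 2 above, the highest at 0.79. The 12 macrophage markers summed to 767 to 879 CPM in controls and 1060 to 1328 CPM in ANKO. Among these, 3 (Adgre1, Gpnmb and Trem2) were called higher, against 0.488% of all features. Endothelial markers, 10 in number, summed to 1014 to 1159 CPM in controls and 851 to 968 CPM in ANKO. None was called by edgeR. At an unadjusted p under 0.05 by edgeR, 3 of 10 were lower, against 6.9% of all features. None of the marker genes in these lists was at 0 in every library. Skeletal muscle RNA differed far more between mice than between groups, as described with H19 and Igf2. Because whole tissue was sequenced, fewer cells of a type and less RNA per cell cannot be told apart in any result here.

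Among the 38 listed genes, 3 were called different in ANKO fat at an adjusted p under 0.05 by edgeR. Peg10 rose to 3.94 times the control level, Nnat fell to 0.169 and Ppp1r9a to 0.642 of it. Peg10 and Nnat are paternally expressed and Ppp1r9a is maternally expressed. Of the 38 genes, 33 had counts high enough to be tested (17 paternally expressed, 15 maternally expressed and Gnas). At an adjusted p under 0.05, 1 of 17 paternally expressed members was higher and 1 lower, and 0 of 15 maternally expressed members were higher and 1 lower (1 higher at an unadjusted p under 0.05 by edgeR, 0 higher by DESeq2). The share called among all 19272 features tested was 1.59% (0.488% higher and 1.1% lower). The median log2 fold change was 0.02 for the 17 paternally expressed and 0.01 for the 15 maternally expressed members, against 0.0 for all features, and all members ranged from -2.57 to 1.98. At an unadjusted p under 0.05 there were 9 of 33 members (2 higher and 7 lower), against 12.9% of all features (6.03% higher and 6.9% lower). The 3 values of each group did not overlap in 8 of 33 members, with 7 lower and 1 higher in ANKO, against 19.4% of all features (10.2% lower and 9.19% higher).

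**Figure D1:**
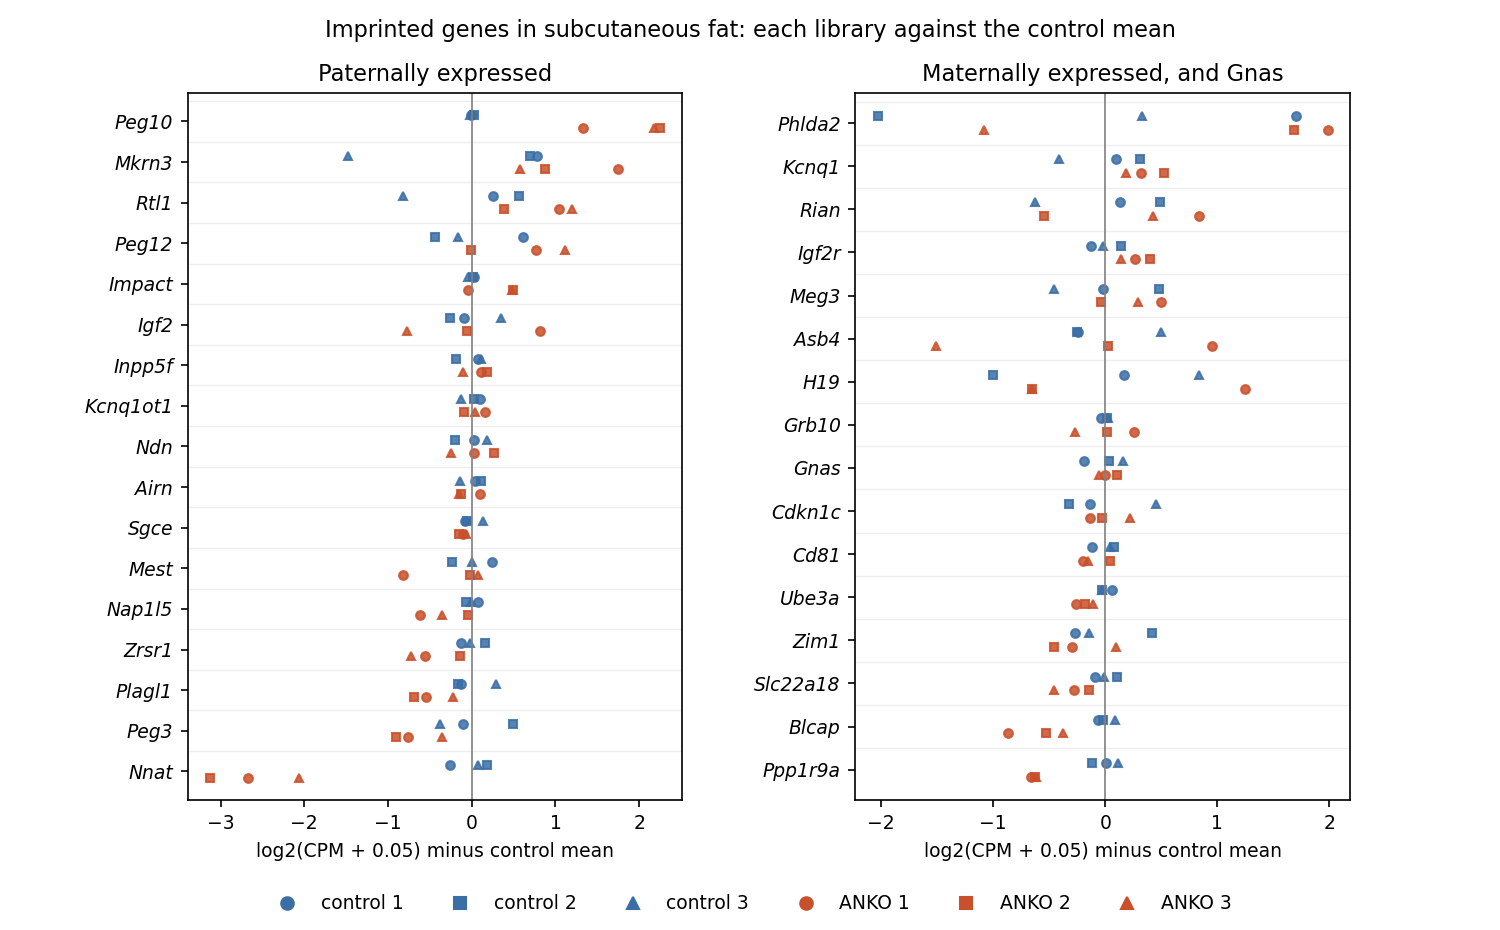
Every tested imprinted gene by library, as log2(CPM + 0.05) minus the mean of the 3 controls on the same scale; blue points are control mice, orange points ANKO mice, and the marker shape gives the mouse number. Peg10 lies above and Nnat and Ppp1r9a lie below their controls in all 3 ANKO mice, while H19 and Phlda2 spread widely in both groups and Igf2 and Asb4 most in ANKO.

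The start regions of the genes with the lowest adjusted p among those that were lower in ANKO are shown because they belong to the Nnat-Blcap and Peg10-Sgce clusters that the result turns on. They come from RefSeq's promoter table for build GRCm38.p6, which matched 32 of the 39 names and has no entry for Peg10 or Sgce. The Blcap window belongs to a start site inside the gene's annotated span. Only bases before the start site that no GENCODE M21 exon covers are printed, 5′ to 3′ on the strand of the gene, with CG dinucleotides (the sites of DNA methylation) in capitals.
Nnat, plus strand, chr2:157560008-157560077: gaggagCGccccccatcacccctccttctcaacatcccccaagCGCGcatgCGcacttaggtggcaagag
Blcap, minus strand, chr2:157566362-157566611: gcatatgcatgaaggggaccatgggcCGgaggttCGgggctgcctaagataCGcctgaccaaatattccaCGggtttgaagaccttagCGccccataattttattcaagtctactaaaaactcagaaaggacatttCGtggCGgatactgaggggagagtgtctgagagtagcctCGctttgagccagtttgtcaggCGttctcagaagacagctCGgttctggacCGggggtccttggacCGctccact
Ppp1r9a, plus strand, chr6:4902725-4902916: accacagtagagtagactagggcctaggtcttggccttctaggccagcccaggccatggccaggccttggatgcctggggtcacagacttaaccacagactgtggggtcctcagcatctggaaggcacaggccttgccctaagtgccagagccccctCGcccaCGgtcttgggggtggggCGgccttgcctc
The 70 printed bases of Nnat held 4 CG dinucleotides, the 250 of Blcap 12 and the 192 of Ppp1r9a 3. In the full windows of 300 bases (250 before and 50 after the start) there were 17, 17 and 10. Of all 32851 windows in the table, whose median was 7, 31.4% held at least 17 and 43.5% at least 10. No measure of methylation was made in this series.

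Nnat (chromosome 2, 157560078 to 157562522, plus strand, GRCm38) encodes neuronatin, a small proteolipid of the endoplasmic reticulum that affects calcium handling and is found in brain, pancreas and fat. Its level was 173, 236 and 218 CPM in controls 1, 2 and 3 and 32.5, 23.7 and 49.7 CPM in ANKO 1, 2 and 3. The highest ANKO mouse thus stayed far under the lowest control. Neuronatin transcripts fell from 209 ± 32.3 to 35.3 ± 13.2 CPM (SD, n = 3; log2 fold change -2.57, SE 0.291, edgeR adjusted p = 0.0153). Per kilobase of exon, Nnat had the highest level of all 38 members in controls, at 114 CPM per kb, ahead of Cd81 at 65.3. In ANKO fat it stood at 19.3 CPM per kb, below Cd81, Igf2r, H19 and Blcap. The call was lost without control 2 (adjusted p = 0.0732), control 3 (0.0763) or ANKO 1 (0.0727), with log2 fold changes of -2.47 to -2.52 in those fits. Over all 15 alternatives the adjusted p ranged from 1.54e-20 to 0.0763.

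Blcap (chromosome 2, 157556362 to 157571274, minus strand), which encodes a small membrane protein linked to cell growth control, surrounds Nnat on the opposite strand. Their annotated exons share no base. Whether counting used strand is not given in the sources, so unspliced Blcap RNA across Nnat could not be told from Nnat. Blcap was measured at 90.8, 93.7 and 101 CPM in controls and 52.0, 66.1 and 73.1 CPM in ANKO mice. All ANKO values were below all control values, but the difference did not pass the threshold (log2 fold change -0.58, SE 0.126, adjusted p = 0.0777). DESeq2 and the fit with no low-count filter did call it (adjusted p = 0.00807 and 0.0231), and over the 15 alternatives the adjusted p reached 0.236. Of 42 tested genes whose start lay within 1 Mb of that of Nnat, Nnat itself included, only Nnat was called. The window was centred on Nnat, so that call was known beforehand. Among all features, 1.59% were called. The next lowest log2 fold change was -1.10 for Adig, the small adipocyte protein adipogenin (means of 79.1 CPM in controls and 36.9 CPM in ANKO, SE 0.214, edgeR adjusted p = 0.0689). The window and Adig were chosen after the values had been seen.

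Peg10 (chromosome 6, 4747306 to 4760517, plus strand) is a gene derived from a retrotransposon that is needed to form the placenta. It was measured at 10.4, 10.7 and 10.3 CPM in controls and 26.3, 49.8 and 47.6 CPM in ANKO mice. The coefficient of variation (SD over mean) was 1.92% in controls, the smallest among controls of the 33 tested members, and 31.4% in ANKO mice, with ANKO 1 lower than the others. The log2 fold change was 1.98 (SE 0.238, edgeR adjusted p = 0.0124). Without control 2, control 3 or ANKO 3 the adjusted p was 0.0732, 0.0575 and 0.054. Its level per kilobase of exon went from 1.57 to 6.19 CPM per kb.

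Sgce, the epsilon-sarcoglycan gene (chromosome 6, 4674350 to 4747207, minus strand), is transcribed away from Peg10 and starts 0.1 kb from it. Both are paternally expressed from a shared control region. Sgce was measured at 25.2, 25.6 and 29.1 CPM in controls and 24.8, 23.9 and 25.3 CPM in ANKO mice. These ranges overlapped (log2 fold change -0.11, SE 0.0993, adjusted p = 0.737). The difference between Peg10 and Sgce was not itself tested.

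Ppp1r9a (chromosome 6, 4902917 to 5165661, plus strand) encodes neurabin-1, which binds actin and targets protein phosphatase 1. It was measured at 69.5, 63.6 and 75.0 CPM in controls and 43.7, 44.8 and 45.2 CPM in ANKO mice. The 3 ANKO values had a coefficient of variation (SD over mean) of 1.71% and lay under every control. The log2 fold change was -0.64 (SE 0.0858, edgeR adjusted p = 0.0137). Leaving out ANKO 1, ANKO 2 or ANKO 3 gave adjusted p = 0.0546, 0.0514 and 0.0728, with log2 fold changes of -0.61, -0.64 and -0.65. Asb4, a maternally expressed ankyrin-repeat gene further along the cluster, was low and spread widely (1.19 ± 0.398 CPM in controls, 1.27 ± 0.953 CPM in ANKO; edgeR adjusted p = 0.97, log2 fold change 0.11, SE 0.596). By library it was at 0.963, 0.958 and 1.65 CPM in controls and 2.27, 1.17 and 0.372 CPM in ANKO. Its sign changed with the processing. Calcr, the calcitonin receptor, had 0 to 5 counts per library and was not tested.

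The genes called around Peg10 were lower in ANKO. Among all features, 0.488% were called higher and 1.1% lower. Of 16 tested genes whose start lay within 1 Mb of that of Peg10, Peg10 itself included, 3 were called lower. The 1 called higher was Peg10, on which the window was centred, so that call was known beforehand. The window was chosen after the values had been seen. The lower ones were Ppp1r9a, at 155.6 kb, and the paraoxonases Pon1, at 446.6 kb, and Pon3, at 509.0 kb, which encode lactone-hydrolysing enzymes. Pon3 was measured at 50.2, 59.0 and 56.9 CPM in controls and 28.4, 32.4 and 27.4 CPM in ANKO mice (edgeR adjusted p = 0.00837, log2 fold change -0.91, SE 0.105), and was called in all 15 alternatives. Pon1 had 2.81 ± 0.575 CPM in controls and 0.474 ± 0.286 CPM in ANKO (log2 fold change -2.56, SE 0.473, edgeR adjusted p = 0.0446). Its level was low, and its call was not followed through the alternatives. Pon2, next to Pon3, stood at 48.9 ± 1.78 and 49.1 ± 6.32 CPM (log2 fold change 0.0, SE 0.108), and Casd1, on the other side of Sgce, at 34.7 ± 0.454 and 32.0 ± 1.13 CPM (adjusted p = 0.651). The summed adipocyte and endothelial markers were lower and the summed macrophage markers higher in every ANKO mouse than in every control. The part of these marker shifts in the fall of Nnat and Ppp1r9a and the rise of Peg10 was not tested.

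**Figure D2:**
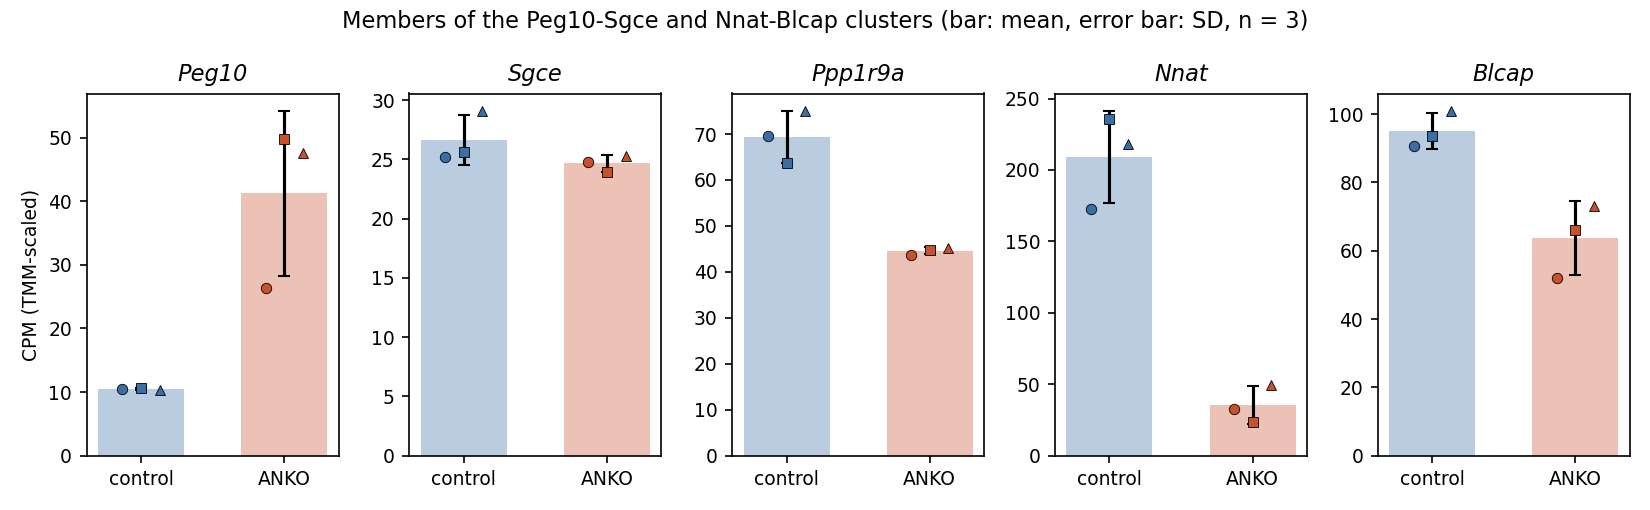
Levels of 3 members of the Peg10-Sgce cluster and of the Nnat-Blcap pair in CPM, with bars at the mean, error bars of 1 SD (n = 3) and points for single mice. Peg10 is 10.3 to 10.7 CPM in controls and 26.3 to 49.8 CPM in ANKO, beside an overlapping Sgce, and Nnat is 173 to 236 CPM in controls and 23.7 to 49.7 CPM in ANKO.

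**Figure D3:**
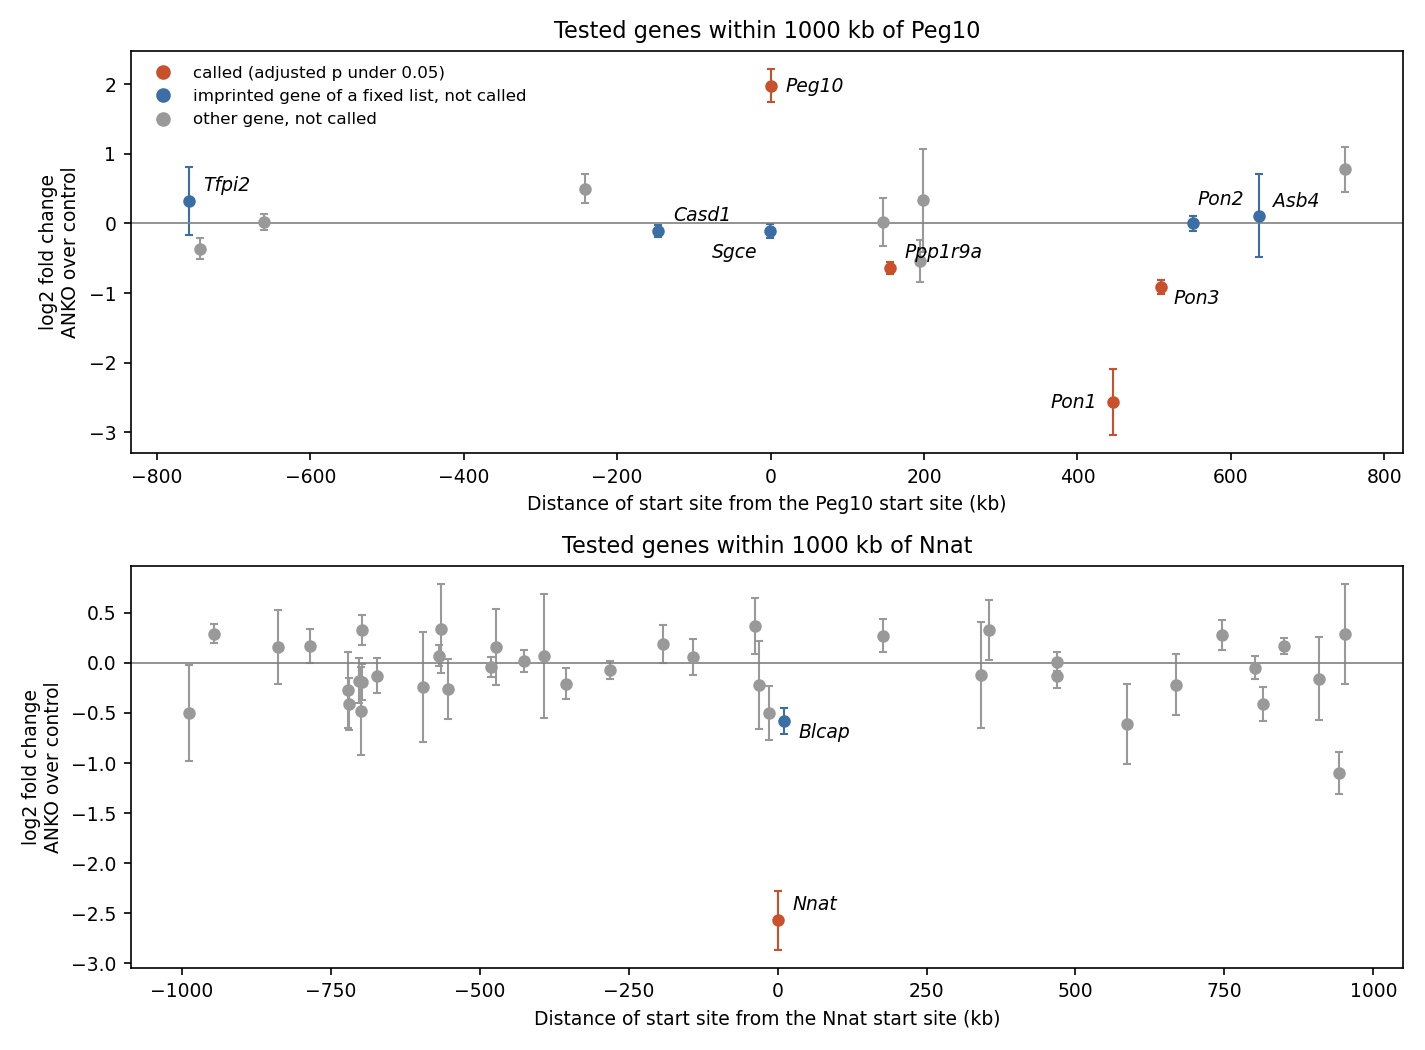
Log2 fold change (ANKO over control, error bars 1 SE) of tested genes within 1000 kb of the start of Peg10 (upper panel, 16 genes) and of Nnat (lower panel, 42 genes) against the distance of their start sites. Orange points are called, blue points are imprinted genes of the lists that are not called, grey points are other genes. Near Peg10, Ppp1r9a, Pon1 and Pon3 lie below 0 on 1 side, and near Nnat only Nnat is called.

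The other paternally expressed members with an unadjusted p under 0.05 by edgeR were lower in ANKO and did not pass the adjusted threshold. Of all 17 tested paternally expressed members, 9 had a log2 fold change above 0 and 8 below. Plagl1, a zinc-finger transcription factor that restrains growth, was measured at 34.5, 33.6 and 46.2 CPM in controls and 25.7, 23.3 and 32.2 CPM in ANKO (log2 fold change -0.49, SE 0.165, unadjusted p = 0.0177, adjusted p = 0.24 by edgeR). Zrsr1, a splicing-factor-like gene inside Commd1, was measured at 39.1, 47.6 and 42.1 CPM in controls and 29.1, 38.8 and 25.9 CPM in ANKO (log2 fold change -0.46, SE 0.157, unadjusted p = 0.0196, adjusted p = 0.252 by edgeR). Neither pair of groups overlapped. The zinc-finger gene Peg3 had 157, 238 and 130 CPM in controls and 100, 90.5 and 132 CPM in ANKO, where ANKO 3 was above control 3 (log2 fold change -0.70, SE 0.251, unadjusted p = 0.0293, adjusted p = 0.308 by edgeR). Its maternally expressed neighbour Zim1 had 12.6, 20.3 and 13.8 CPM in controls and 12.4, 11.1 and 16.3 CPM in ANKO (adjusted p = 0.754). Control 2 was the highest library for Peg3 and Zim1, and it also had the highest sum of 10 mammary epithelium markers (1707 CPM, against 227 to 1087 CPM in the other libraries); the part of such cells was not tested. Usp29 of the same cluster had no counts.

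Receptors and regulators of insulin-like growth factor signalling were next. Igf2r, which takes IGF2 into lysosomes for breakdown, was measured at 194, 234 and 209 CPM in controls and 255, 280 and 234 CPM in ANKO mice. ANKO 3 and control 2 were close to each other, and the difference did not pass the threshold (log2 fold change 0.27, SE 0.108, unadjusted p = 0.0356, adjusted p = 0.335 by edgeR). Airn, the antisense RNA that silences the paternal Igf2r, stood at 28.6 ± 2.49 and 27.4 ± 2.68 CPM (adjusted p = 0.895). Grb10, an adaptor that dampens insulin and IGF1 receptor signalling, stood at 101 ± 2.62 and 102 ± 18.4 CPM (adjusted p = 0.981). In the list of 19 other IGF-axis genes, 17 were tested, 0 were called higher by edgeR and 2 lower, against 0.488% and 1.1% of all features, and the median log2 fold change was -0.09. At an unadjusted p under 0.05, 4 were higher and 7 lower, against 6.03% and 6.9% of all features. The 2 were Igfals, the acid-labile subunit that holds IGF complexes in blood (27.6, 39.6 and 28.2 CPM in controls, 11.2, 8.49 and 9.43 CPM in ANKO, edgeR adjusted p = 0.00645, log2 fold change -1.71, SE 0.179), and Igf1 itself (207, 170 and 163 CPM in controls, 96.6, 86.5 and 101 CPM in ANKO, edgeR adjusted p = 0.0107, log2 fold change -0.93, SE 0.114). Igfals and Igf1 were called in all 15 alternatives.

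H19 and Igf2 showed no call and were highest in the libraries with the most muscle RNA. H19, a maternally expressed non-coding RNA, was measured at 49.0, 21.8 and 78.0 CPM in controls and 104, 27.8 and 27.8 CPM in ANKO mice. Igf2, the paternally expressed growth factor beside it, had 15.2, 13.5 and 20.6 CPM in controls and 28.5, 15.5 and 9.48 CPM in ANKO. The 19 skeletal muscle markers summed to 11841, 3520 and 18796 CPM in controls and 35567, 6150 and 287 CPM in ANKO. ANKO 1 and control 3 were thus the highest and next highest libraries for the muscle sum, for H19, for Igf2 and for Asb4, and ANKO 3 was lowest for the muscle sum, Igf2 and Asb4. None of the 18 tested muscle markers was called by edgeR or had an unadjusted p under 0.05. With the muscle sum as a covariate the standard error fell from 0.405 to 0.152 for Igf2 and from 0.773 to 0.495 for H19, and the log2 fold changes went from 0.12 to 0.27 (adjusted p = 0.587) and from 0.10 to 0.37 (adjusted p = 0.862). Annotated Igf2 exons share 64.5% of their bases with other gene models, chiefly Gm49394 on the same strand, and how such reads were assigned is not stated. Peg10, Nnat and Ppp1r9a stayed called with the muscle covariate.

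In the Dlk1-Dio3 cluster on chromosome 12 no member was called. Within each group, Meg3, Rian and Rtl1 were lowest in the same mouse. Meg3, a maternally expressed non-coding RNA, was measured at 70.5, 100 and 52.2 CPM in controls and 101, 69.7 and 88.0 CPM in ANKO. Rian, a non-coding host of small nucleolar RNAs, had 26.2, 33.6 and 15.5 CPM in controls and 42.6, 16.4 and 32.1 CPM in ANKO. Rtl1, a paternally expressed retrotransposon-derived gene, had 3.63, 4.54 and 1.70 CPM in controls and 6.30, 3.98 and 7.02 CPM in ANKO. Control 3 was the lowest library and ANKO 2 the lowest of the ANKO mice for each of them, and also for Mirg, a microRNA host of the cluster from the list of other imprinted genes (2.53 and 2.90 CPM). None of the members passed the test, and their smallest p was that of Rtl1 (log2 fold change 0.81, SE 0.373, unadjusted p = 0.0634, adjusted p = 0.426 by edgeR). A further line under the name Rtl1 had no counts. Dlk1, the preadipocyte factor, came from the list of other imprinted genes. It stood at 0.963, 0.655 and 0.928 CPM in controls and 2.27, 2.21 and 1.16 CPM in ANKO. Its log2 fold change was 1.14 (SE 0.378, unadjusted p = 0.0164, adjusted p = 0.23 by edgeR). Another line named Dlk1 was at 0 in every library. Dio3, the thyroid hormone-inactivating deiodinase, had 2 to 11 counts per library and was not tested.

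**Figure D4:**
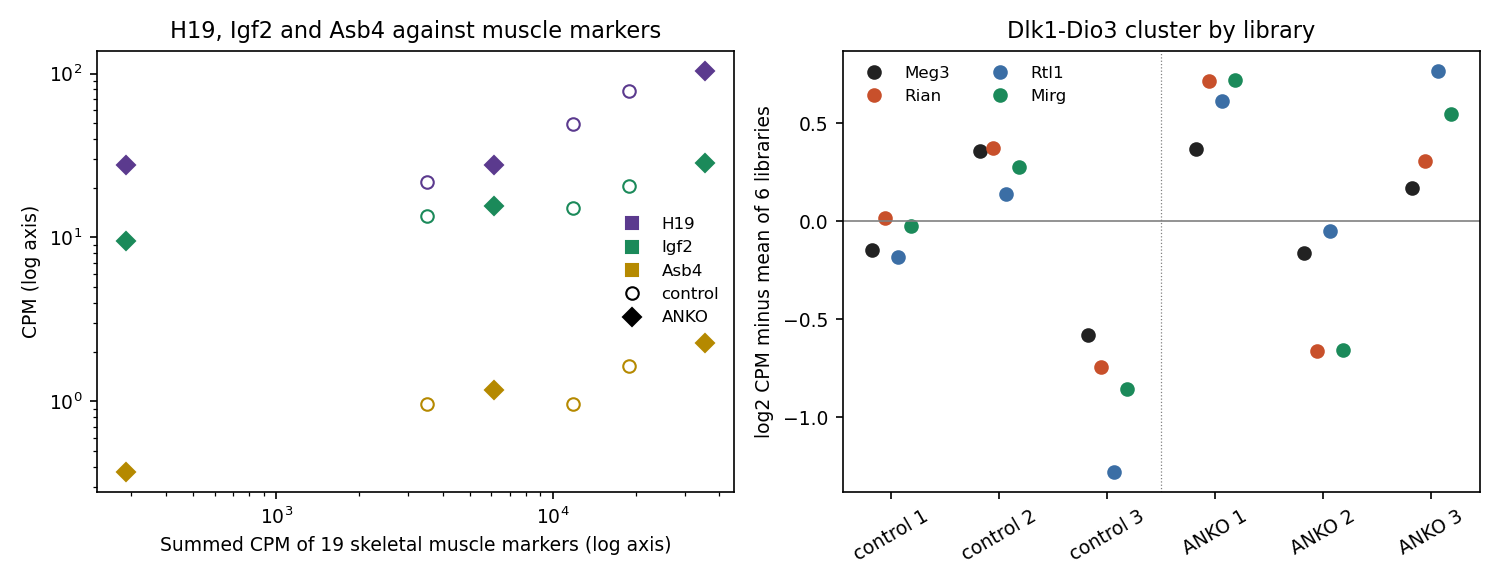
Left panel, CPM of H19, Igf2 and Asb4 against the summed CPM of 19 skeletal muscle markers, both on log axes, with 1 point per gene and library (open circles control, filled diamonds ANKO). Right panel, log2 CPM of Meg3, Rian, Rtl1 and Mirg in each library minus the gene's mean over 6 libraries. ANKO 1, with 35567 CPM of muscle markers, is highest for all 3 genes on the left, and control 3 is lowest for all 4 genes on the right.

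In the Kcnq1 cluster on chromosome 7 no member passed the test. Kcnq1ot1, the paternally expressed RNA that silences its neighbours, was the most counted member, with 6900 to 10338 counts per library and 389 ± 31.3 CPM in controls and 399 ± 35.3 CPM in ANKO (edgeR adjusted p = 0.941). Over its 93092 annotated bases this came to 4.18 and 4.29 CPM per kb, 17th among the members over all 6 libraries. Cdkn1c, the cell cycle inhibitor p57, stood at 27.9 ± 8.19 and 27.7 ± 3.60 CPM, the tetraspanin Cd81 at 188 ± 13.6 and 175 ± 15.7 CPM, and the potassium channel Kcnq1 at 3.59 ± 0.891 and 4.49 ± 0.54 CPM. The transporter Slc22a18 had separate groups (5.21, 6.00 and 5.51 CPM in controls, 4.58, 5.02 and 4.04 CPM in ANKO) with an adjusted p = 0.581. Phlda2, which limits placental growth, had 0 to 18 counts per library and passed the filter with an SE of 1.09 on the log2 scale. The transcription factor Ascl2 had 0 to 4 counts in controls and 6 to 12 in ANKO and was not tested.

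Members of the Snrpn-Ube3a cluster, known for the Prader-Willi and Angelman syndromes, showed no call. The ubiquitin ligase Ube3a had separate groups with a small difference (117, 110 and 110 CPM in controls, 93.7, 99.2 and 104 CPM in ANKO, log2 fold change -0.18, SE 0.0774, unadjusted p = 0.046, adjusted p = 0.373 by edgeR). Of its annotated exon bases, 27.3% are shared with other gene models, among them the antisense Snhg14. Necdin (Ndn), which restrains adipocyte formation, stood at 17.3 ± 2.24 and 17.6 ± 3.15 CPM (adjusted p = 0.975). The ubiquitin ligase gene Mkrn3 and the Frat family gene Peg12 were low, at 0.832 ± 0.544 and 1.10 ± 0.458 CPM in controls and 1.54 ± 0.71 and 1.72 ± 0.646 CPM in ANKO. Magel2 had no counts.

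The remaining members lie alone or with 1 partner. Impact, an inhibitor of the amino acid-sensing kinase GCN2, had 34.7, 34.3 and 32.9 CPM in controls and 32.9, 47.9 and 47.4 CPM in ANKO. In ANKO 2 and ANKO 3 it was above every control, whereas ANKO 1 was among them (log2 fold change 0.33, SE 0.146, unadjusted p = 0.0526, adjusted p = 0.395 by edgeR). ANKO 1 was also the lowest ANKO mouse for Peg10. Mest, a hydrolase-like gene known to follow the expansion of fat, stood at 8.28 ± 1.36 and 7.11 ± 2.17 CPM (adjusted p = 0.802). Gnas, whose main product is the stimulatory G protein alpha subunit, stood at 61.6 ± 7.29 and 61.9 ± 3.62 CPM (adjusted p = 0.984), as a sum over its transcripts of different parental origin. The phosphoinositide phosphatase Inpp5f stood at 49.4 ± 5.32 and 51.7 ± 5.18 CPM and the nucleosome assembly-like gene Nap1l5 at 4.61 ± 0.239 and 3.67 ± 0.744 CPM, with adjusted p = 0.878 and 0.607.

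Lists of related genes were read in the same fit. Of 52 other imprinted genes, 41 were tested, with a median log2 fold change of -0.04. Among them 0 were called higher and 1 lower (Pon3), against 0.488% and 1.1% of all features. At an unadjusted p under 0.05 by edgeR, 2 were higher and 3 lower, against 6.03% and 6.9% of all features. DESeq2 called 1 higher, the collagen-binding proteoglycan gene Dcn (307 ± 27.6 CPM in controls, 479 ± 72.5 CPM in ANKO, edgeR adjusted p = 0.0639), and 2 lower, Pon3 and Smoc1, which encodes a matrix protein (183 ± 31.3 CPM in controls, 88.2 ± 24.6 CPM in ANKO, log2 fold change -1.05, edgeR adjusted p = 0.0771). Neither Dcn nor Smoc1 overlapped between groups, as was so for 19.4% of all features. Both were named after their values were seen. Regulators of imprints, such as DNA methyltransferases, TET enzymes and KRAB zinc-finger proteins, numbered 26. Of these, 23 were tested and, against 1.1% of all features, 1 was called lower. This was Ctcfl, a paralog of the insulator protein CTCF known from testis, measured at 12.0, 10.6 and 12.7 CPM in controls and 3.74, 4.94 and 6.55 CPM in ANKO (edgeR adjusted p = 0.0412, log2 fold change -1.21, SE 0.219). Leaving out any of the 6 libraries in turn ended the call (adjusted p = 0.0538 to 0.133). The maintenance methyltransferase Dnmt1, the imprint protectors Trim28 and Zfp445, and Ctcf were not called (adjusted p = 0.932, 0.825, 0.956 and 0.969). Of 12 tested genes of the retrotransposon-derived families to which Peg10 and Rtl1 are related, 0 were called by edgeR, DESeq2 or limma-voom. At an unadjusted p under 0.05 by edgeR there were 0, against 12.9% of all features. The smallest p was that of Rtl8c (6.05 ± 1.43 and 4.35 ± 0.17 CPM, log2 fold change -0.47, SE 0.213, adjusted p = 0.41).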

How the data were processed

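RNA of 6 libraries, 1 per mouse, was depleted of ribosomal RNA with Ribo-Zero Gold, per the labels' protocols. STAR 2.0.4b, Subread, featureCounts 1.45 and build GRCm38 are named in the submitters' processing notes; the annotation release and strandedness are not stated there. Raw read counts per gene symbol were deposited, with no normalisation by the authors. Of 40757 lines, 329 exact repeats were removed, and different lines of 1 symbol were kept apart. Groups came from sample titles. Features passing filterByExpr (minimum count 10) numbered 19272. Counts were TMM-scaled and tested by edgeR 4.0.16 (quasi-likelihood, robust, R 4.3.3), with Benjamini-Hochberg adjustment over all features and a threshold of 0.05. The SE of a log2 fold change was taken as its size over the root of the F statistic. CPM are TMM-scaled, and length is the union of GENCODE M21 exons. The steps were tested on simulated data. Alternatives used DESeq2 1.42.0, limma-voom (limma 3.58.1), other scalings and filters, a replicate block, a muscle covariate, summed lines and each library left out. Full values are given for called members, members with an unadjusted p under 0.05, Peg10 and their cluster mates, and for the called or top gene of each related list; further members are given by group or library levels. Members, lists and this rule were chosen with earlier results of these data known. The labels do not say that mice of a group came from separate litters or cages. P-values set the group difference against the spread between these libraries, which may not be that of independent mice.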

Additional observations from a re-analysis of the deposited data

How the results depend on the processing

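With 3 mice per group, low-count members such as Phlda2, Asb4 and Mkrn3 have wide errors. Over 15 alternatives Peg10, Nnat and Ppp1r9a kept their direction, a direction that groups without overlap largely fix, and were called in 12, 11 and 12 of them. Leaving out 1 library gave log2 fold changes of 1.82 to 2.24 for Peg10, -2.89 to -2.35 for Nnat and -0.70 to -0.57 for Ppp1r9a. The same fits called 20 to 107 of all genes higher and 55 to 221 lower, 0 to 1 paternally expressed members higher, 0 to 1 lower, 0 to 1 maternally expressed members lower, 1 to 2 other imprinted genes lower and 0 imprint regulators lower. These fits have fewer samples. DESeq2 called 388 genes higher and 498 lower, 2 maternally expressed members lower (Ppp1r9a and Blcap), 1 other imprinted gene higher and 2 lower, and 5 IGF-axis genes lower. Without the low-count filter 167 genes were called higher, 2 maternally expressed members lower, 1 other imprinted gene higher and 4 IGF-axis genes lower. Upper-quartile scaling called 1 other imprinted gene higher. With the muscle covariate 49 genes were called higher and 112 lower. The cause of these shifts was not tested.

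Replicate numbers gave no sign of pairing the mice: deviations of same-numbered mice correlated at 0.0746, -0.0333 and -0.0435. Not every library correlated best with its own number. Such values from 3 mice per group cannot show that pairing was absent. With the replicate number as a block, 62 genes were called higher and 145 lower, 0 paternally expressed members lower and 0 imprint regulators lower, and Nnat stood at -2.62 (edgeR adjusted p = 0.0533). Asb4, never called, changed sign: -0.15 with limma-voom, -0.07 with the replicate block, and -0.60 to 0.54 when 1 library was left out.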
